A study of Mus musculus with 5 samples.

Results

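The ATF4 and CHOP stress regulators are 10 genes that encode transcription factors and feedback proteins of the integrated stress response. They were found by gene symbol among the probe sets of an Affymetrix mouse expression array that the platform annotation assigns to 1 gene. This gave 16 probe sets for 10 of 18193 genes, out of 45037 probe sets without controls. Atf4 had 3 probe sets, Ddit3, Trib3, Nupr1 and Sesn2 had 2 each, and Atf3, Atf5, Ddit4, Chac1 and Ppp1r15a had 1 each. All 10 genes were above the lower limit of signal, set at 43.4, in at least 1 array.

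The study measured RNA from CD4 T cells from BALB/c mouse spleens on 5 arrays, 1 for each group. These were effector Th1 cells labelled TOFA, effector Th1 cells labelled Rap, memory Th1 cells, control effector Th1 cells and naive cells. A Th1 culture of 5 days, with IL-2 at 15 ng/ml and IL-12 at 10 ng/ml, is attached to all 5 samples in the labels, although only the effector samples are described as cultured. TOFA blocks acetyl-CoA carboxylase, the enzyme that makes malonyl-CoA for fatty acid synthesis. The label Rap is not expanded, and no dose, number of animals or age is given for any group.

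In the integrated stress response, kinases that sense amino acid shortage, misfolded protein, double-stranded RNA or lack of heme phosphorylate the initiation factor eIF2alpha. General translation then slows, while the Atf4 mRNA is translated more, and ATF4 switches on genes that import and make amino acids together with the factors CHOP (Ddit3), ATF3 and ATF5. Activated T cells draw on the same ATF4 genes for growth. Arrays measure mRNA, so ATF4 protein and eIF2alpha phosphorylation were not measured.

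Signals were made comparable by giving all 5 arrays the same distribution of values (quantile normalization), and are linear and in arbitrary units. The brightest probe set stood for each gene, and a difference of at least 2-fold was the level at which a gene was counted as higher or lower. No group had a replicate, so there is no test between groups, no p-value and no SD between samples. Precision is limited by the number of arrays. The only internal measure of error was the SD between probe sets of the same gene. It was pooled over all genes with at least 2 probe sets above the limit in both arrays. It measures disagreement between probe sets and not variation between samples, and the same value is used for members with 1 probe set. On the log2 scale the SD was 0.33 for TOFA over control effector, 0.34 for Rap over control effector and 0.30 for TOFA over Rap. It was larger between cell stages, at 0.57 for control effector over naive, 0.43 for memory over naive and 0.55 for memory over control effector. "Higher" and "lower" therefore describe these 5 arrays.

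The arrays differed in markers of other spleen cells. All 8 T cell identity genes measured were above the limit in all 5 arrays. Myeloid markers had a summed signal of 67317 in memory cells, with 10 of 10 above the limit, against 379 to 1640.0 in the other 4 arrays. B cell markers summed to 51334 in memory and 33335 in naive cells, against 1999 to 2789 in the 3 effector arrays. Neutrophil markers summed to 13315 in memory and 5968 in naive cells, against 448 to 758 in the effector arrays. Dendritic cell markers summed to 46181 in memory cells against 5950.2 to 7962 in the other arrays, and erythroid markers to 5428 against 126 to 656. Of the dendritic markers, Batf3 went the other way, with 3678 to 4932 in the effector arrays, 293 in memory and 85.1 in naive cells. Of 7 natural killer and CD8 T cell markers, 4 to 6 were above the limit in each array. Unlike the other lists, their sums were highest in the effector arrays. They were 2406 in TOFA, 4102 in Rap and 2747 in control effector cells, against 2077 in memory and 1165 in naive cells. The myeloid gene Lyz2 was under the limit in the 3 effector arrays, at 26.0 to 38.2, and had 14766 in memory and 811 in naive cells. The memory array, and to a smaller degree the naive array, thus stood apart by markers of other cells, and their part in any memory or naive value below was not tested. Neither array can be left out, since each is the 1 array of its group. In such bulk samples, fewer cells of a type and less RNA per cell cannot be told apart. RNA quality, read from the 3' to 5' ratio of control probe sets, differed little between arrays, at 0.832 to 0.918 for Gapdh and 1.26 to 1.45 for beta-actin.

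The members stood out by their level in TOFA cells. In 8 of 10 members the TOFA array gave the highest of the 5 signals, against 16.8% of the 14522 genes above the limit in at least 1 array. In 7 members, Atf4, Atf5, Ddit3, Trib3, Chac1, Nupr1 and Sesn2, the TOFA signal was at least 2-fold above each of the other 4 arrays. Only 60 genes of the 14522 met that description, a share of 0.413%. The 3 other members were Atf3, which was highest in TOFA cells by under 2-fold, Ddit4, highest in control effector cells, and Ppp1r15a, highest in naive cells. Another 15 of the 60 belonged to the other gene lists described further on, and 38 to none. The 15 included Plk2 of the p53 targets and Hspa1b of the immediate early list. Members and lists were chosen with earlier results of these data known. The counts here and below, and the shares beside them, are therefore descriptions and not tests.

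**Figure D1:**
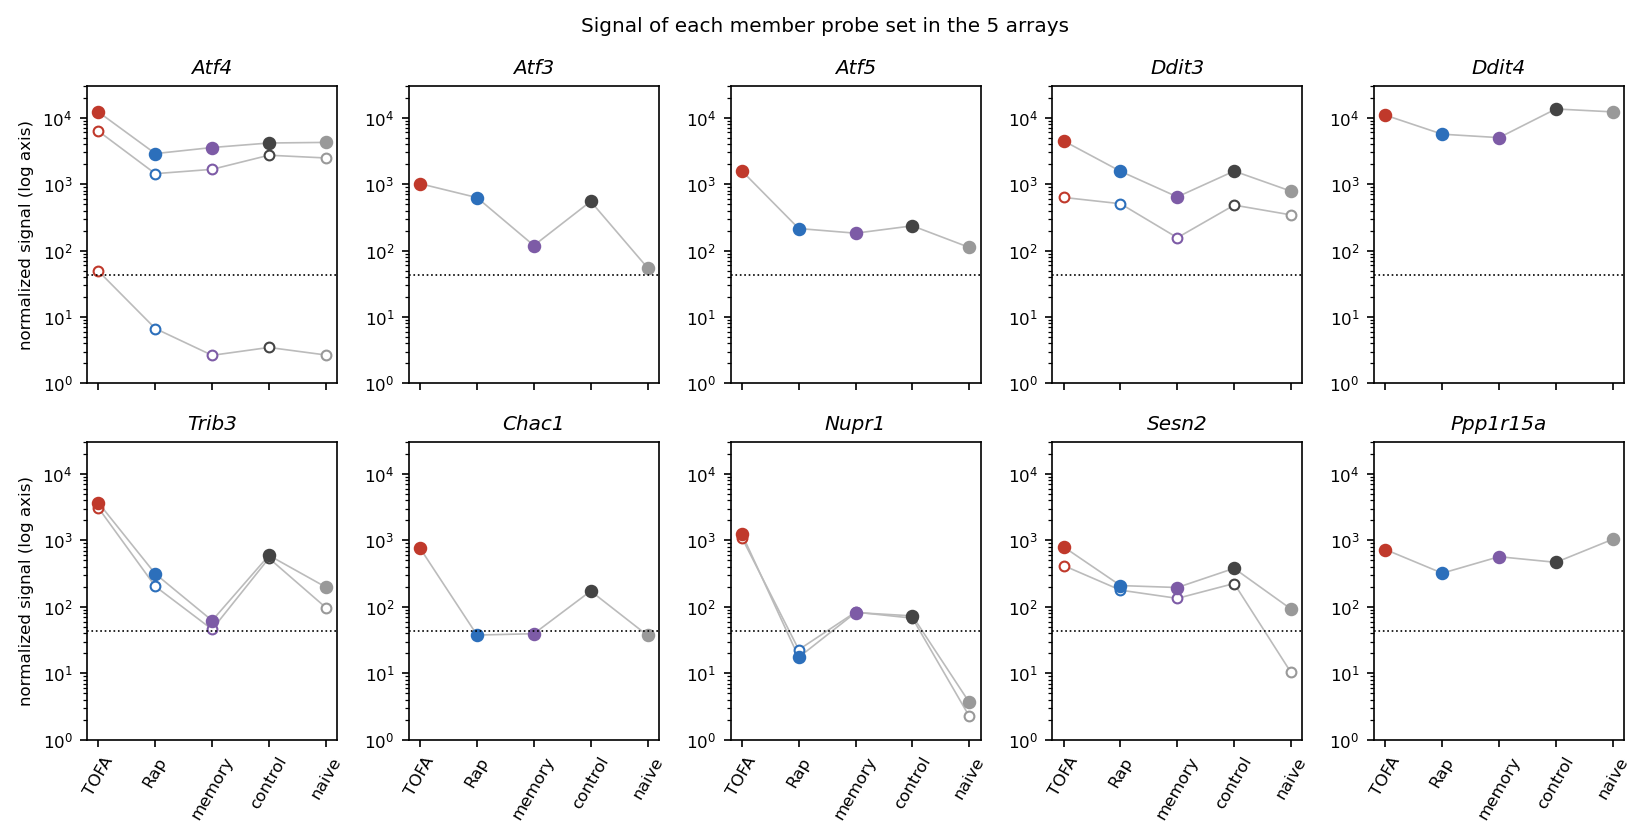
Normalized signal (log axis) of each probe set of the 10 members in the TOFA effector, Rap effector, memory, control effector and naive arrays, 1 array each; filled points are the probe set that stands for the gene, open points its other probe sets, and the dotted line is the limit of 43.4. The TOFA point is the highest in the panels of Atf4, Atf3, Atf5, Ddit3, Trib3, Chac1, Nupr1 and Sesn2, and not in those of Ddit4 and Ppp1r15a.

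TOFA effector cells were first set against control effector cells, which shows how stress genes stood in cells given the carboxylase inhibitor. In TOFA cells 7 of the 10 members were higher by at least 2-fold, namely Atf4, Atf5, Ddit3, Trib3, Chac1, Nupr1 and Sesn2, and none was lower by as much. Over all 12850 genes compared, 2.47% were at least 2-fold higher and 2.15% at least 2-fold lower. The median log2 difference was 1.53 over the members, against 0.01 over all genes compared. Among probe sets, 10 of 16 were at least 2-fold higher and 15 of 16 lay above 0. Of all genes compared, 51.3% lay above 0.

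Atf4, the factor at the head of the transcriptional response, had a signal of 12163 in TOFA cells, 2881 in Rap cells, 3557 in memory cells, 4159 in control effector cells and 4247 in naive cells. The TOFA array stood alone, and no neighbouring pair among the other 4 was 2-fold apart. TOFA over control effector was 2.92-fold, place 94 from the top of the 12850 genes. The second bright probe set of Atf4, of a type that can match other transcripts, had signals of 6267 in TOFA and 2723 in control effector cells, a log2 difference of 1.20. The third, with a signal of 48.9 in TOFA cells, was under the limit in the other 4 arrays and carries little information.

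Ddit3 encodes CHOP, a C/EBP-family factor that is induced by ATF4 and promotes cell death when stress lasts. It had signals of 4472 in TOFA cells, 1560.4 in Rap cells, 643 in memory cells, 1572 in control effector cells and 783 in naive cells. TOFA over control effector was 2.85-fold, while the Rap and control effector signals were nearly equal, with a log2 difference of -0.01. The other, dimmer probe set of Ddit3 gave 630 in TOFA and 483 in control effector cells, a log2 difference of only 0.38. The 2 probe sets of Ddit3 thus differed by more than the probe set SD of 0.33.

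Atf5, which encodes a factor of the mitochondrial stress response, had signals of 1577 in TOFA cells, 215 in Rap cells, 183 in memory cells, 236 in control effector cells and 112 in naive cells. Its difference of 6.69-fold between TOFA and control effector cells was in place 10 of all genes compared. Atf3, a stress-induced factor that represses as well as activates genes, had signals of 1014 in TOFA, 627 in Rap, 119 in memory, 549.99 in control effector and 55.1 in naive cells. For Atf3, TOFA over control effector was 1.84-fold and under the 2-fold level. Its 3 effector signals lay within 2-fold of each other and above those of memory and naive cells.

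Nupr1 encodes a small nuclear protein of the stress response. Its signal was 1246 in TOFA cells, 17.4 in Rap cells, 81.9 in memory cells, 73.0 in control effector cells and 3.65 in naive cells. The TOFA signal was 17.1-fold above control effector, second among all genes compared, and 15.2-fold above memory, the next highest array. Its other probe set gave 1094 in TOFA and 67.5 in control effector cells, a log2 difference of 4.02 against 4.09 on the first. Outside the TOFA array, Nupr1 was under the limit or less than 2-fold above it. Its fold change therefore depends on the limit, and the log2 difference was 3.05 with the limit at the 60th percentile of signal.

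Trib3 encodes a pseudokinase that binds ATF4, CHOP and AKT and damps the response. Its signals were 3672 in TOFA cells, 314 in Rap cells, 62.0 in memory cells, 595 in control effector cells and 198 in naive cells. Its other probe set kept the same order of arrays, with 3070.1 in TOFA and 539 in control effector cells. The log2 difference of TOFA over control effector was 2.63 and 2.51 on the 2 probe sets, and the gene was in place 17 of all compared.

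Chac1 encodes an enzyme that breaks down glutathione. Its signal was 756 in TOFA cells, 37.6 in Rap cells, 39.4 in memory cells, 173 in control effector cells and 37.1 in naive cells. TOFA over control effector was 4.38-fold. The Rap, memory and naive signals were under the limit and have no order among themselves.

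The next 3 members are brakes on growth and on the stress response itself. Sesn2 encodes sestrin 2, a leucine sensor that restrains the growth kinase complex mTORC1. It had signals of 797 in TOFA, 209 in Rap, 195 in memory, 379 in control effector and 92.6 in naive cells, so that TOFA over control effector was 2.10-fold. Its other probe set gave 417 in TOFA and 224 in control effector cells, a log2 difference of 0.90 that is under the 2-fold level. Ppp1r15a encodes GADD34, which brings a phosphatase to eIF2alpha and so ends the response. It had signals of 728 in TOFA, 321 in Rap, 568 in memory, 467 in control effector and 1038 in naive cells, and was 1.56-fold higher in TOFA than in control effector cells.

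Ddit4 encodes REDD1, which also inhibits mTORC1 and responds to hypoxia and glucocorticoids as well as to ATF4. It was the 1 member with a lower signal in TOFA cells, with 10904 in TOFA, 5646 in Rap, 5010.1 in memory, 13536 in control effector and 12230.2 in naive cells. The difference of -0.31 (log2, TOFA over control effector) was no larger than the probe set SD of 0.33. No neighbours in the order of its 5 arrays were 2-fold apart.

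With the mean of all probe sets in place of the brightest, 4 members were past 2-fold instead of 7. Atf4 (log2 difference 0.97), Ddit3 (0.95) and Sesn2 (0.98) moved under it. Atf5, Trib3, Chac1 and Nupr1 were past 2-fold under each of the 7 alternatives tried. Not all of these could change them. The mean of probe sets could not move Atf5 and Chac1, which have 1 probe set each. Omission of probe sets that may match more than 1 transcript could not move any of the 4. Atf5, Trib3 and Nupr1 have only probe sets of those types, and Chac1 has none.

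**Figure D2:**
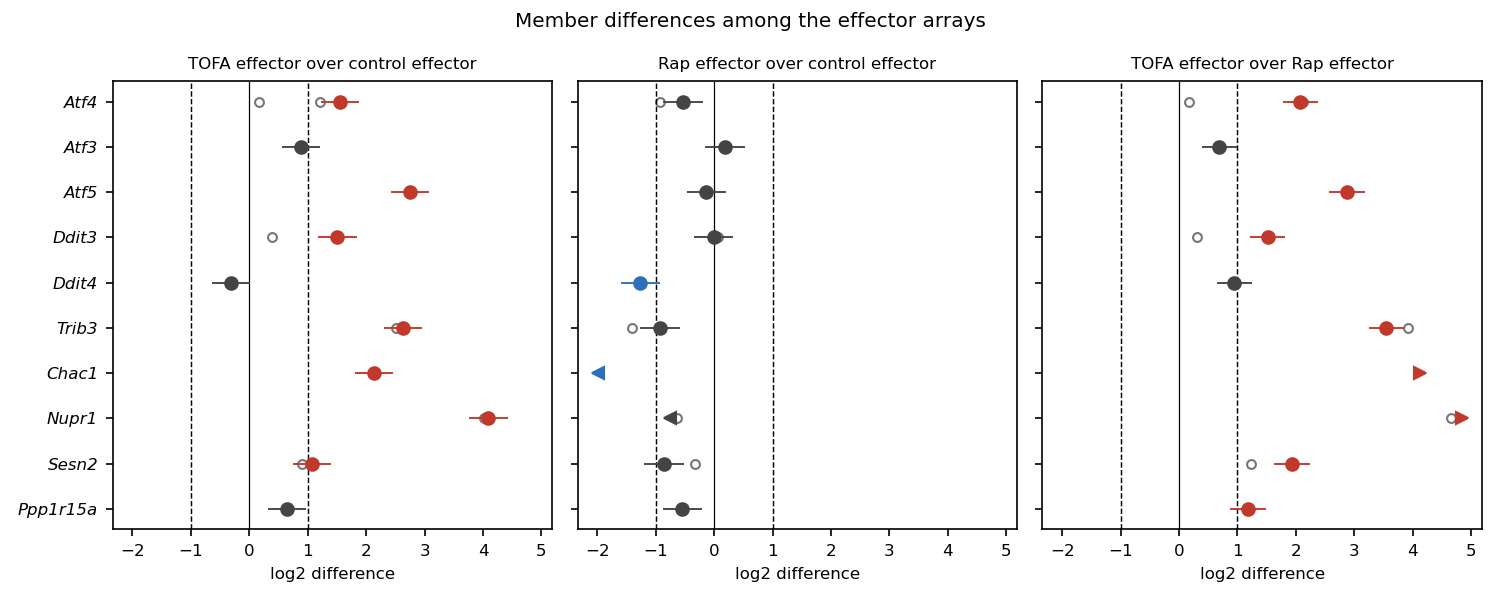
Log2 differences of the 10 members for TOFA over control effector, Rap over control effector and TOFA over Rap, from 1 array a group; filled marks are the probe set that stands for the gene with bars of the SD between probe sets (0.33, 0.34 and 0.30), triangles are bounds from a signal under the limit, open circles are other probe sets, and dashed lines mark 2-fold. Marks past 2-fold lie on the high side in the TOFA panels (7 and 8 of 10) and on the low side in the Rap panel (2 of 10).

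Promoter sequences were examined because 7 members were high together in TOFA cells. ATF4 binds DNA with C/EBP partners at the C/EBP-ATF response element, whose core is TGATGNAA. This core was searched on both strands from 250 bases before to 50 bases after the gene start in RefSeq promoters of build GRCm38.p6, where all 10 members matched by symbol. It was present for Nupr1, Chac1, Atf3 and Trib3, and in 3.97% of all 32851 promoters of that length. The cyclic AMP response element TGACGTCA was present for Ppp1r15a and in 1.79% of all promoters. The ER stress element, CCAAT and CCACG with 9 bases between them, was present for none of the 10 and in 0.119% of all promoters. The matches of the members to the first motif and to the second lay in different genes, so none overlapped.

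The sequences below are the 250 bases before the start of the 3 members whose core lies there, followed by the member with the cyclic AMP element, each 5' to 3' on the strand of its gene, with the match in capitals. They show 3 members with the same 8 letters, TTGCATCA, which are the core read on the opposite strand. The Nupr1 promoter lies at chr7:126625471-126625720 on the minus strand and that of Chac1 at chr2:119350992-119351241 on the plus strand. Those of Atf3 and Ppp1r15a lie on minus strands, at chr1:191183334-191183583 and chr7:45526269-45526518.

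Nupr1: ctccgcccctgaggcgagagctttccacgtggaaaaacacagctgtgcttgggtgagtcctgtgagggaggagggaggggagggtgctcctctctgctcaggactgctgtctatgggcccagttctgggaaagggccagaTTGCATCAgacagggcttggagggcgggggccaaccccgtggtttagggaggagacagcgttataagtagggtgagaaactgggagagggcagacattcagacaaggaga

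Chac1: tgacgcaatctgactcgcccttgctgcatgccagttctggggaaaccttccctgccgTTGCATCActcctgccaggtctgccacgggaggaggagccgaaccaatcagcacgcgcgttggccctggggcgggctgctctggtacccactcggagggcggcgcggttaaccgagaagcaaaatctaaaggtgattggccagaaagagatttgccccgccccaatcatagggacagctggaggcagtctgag

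Atf3: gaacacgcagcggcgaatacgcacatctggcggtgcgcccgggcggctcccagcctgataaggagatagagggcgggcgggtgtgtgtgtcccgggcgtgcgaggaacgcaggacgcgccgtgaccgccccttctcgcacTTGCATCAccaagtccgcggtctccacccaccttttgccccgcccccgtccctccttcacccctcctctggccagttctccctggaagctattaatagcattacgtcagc

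Ppp1r15a: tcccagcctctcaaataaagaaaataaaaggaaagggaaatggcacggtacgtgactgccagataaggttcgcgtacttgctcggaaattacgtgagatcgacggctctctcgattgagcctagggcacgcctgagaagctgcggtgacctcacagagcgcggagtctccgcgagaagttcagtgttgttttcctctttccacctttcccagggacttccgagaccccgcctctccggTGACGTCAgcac

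The match lay at bases -110 to -103 from the start for both Nupr1 and Atf3, and at -193 to -186 for Chac1. That of Trib3, TTACATCA, lay after the start, at bases 15 to 22. Of the 4 members with the core, Nupr1 (17.1-fold), Trib3 (6.17-fold) and Chac1 (4.38-fold) were past 2-fold for TOFA over control effector and Atf3 was not. Of the 6 without it, Atf5 was at 6.69-fold and the other 5 at 2.92-fold or below. Nupr1 and Atf3 hold the same 8 letters at the same distance, and Atf3 was at 1.84-fold. Atf4, Atf5, Ddit3 and Sesn2, all past 2-fold, had no match in this window, which says nothing of sites elsewhere.

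Rap effector cells were set against the same control array. In Rap cells Chac1 and Ddit4 were lower by at least 2-fold, 2 of 10 members, and no member was higher by as much. Over all 12851 genes compared, 1.82% were at least 2-fold higher and 3.91% at least 2-fold lower. The median over the members was -0.65 on the log2 scale, against 0.00 over all genes, and 9 of 10 members lay below 0. Of all genes compared, 49.5% lay above 0.

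Chac1 stood at 37.6 in Rap against 173 in control effector cells, at least 3.98-fold lower with the Rap value under the limit. With the limit raised to the 60th percentile of signal, 150.5, the control signal of Chac1 is near the limit and the count of 2 is 1. Other alternatives added a member. Nupr1 was also past 2-fold lower with the limit at the 20th percentile, and Trib3 with the mean of all probe sets. Ddit4 was 2.40-fold lower in Rap cells. Trib3, with 314 in Rap and 595 in control effector cells, was 1.90-fold lower on its brightest probe set and differed by -1.41 on the log2 scale on the other. Sesn2 (209 in Rap against 379 in control effector cells), Atf4 (2881 against 4159) and Ppp1r15a (321 against 467) differed by -0.86, -0.53 and -0.54 on the log2 scale, each under 2-fold. Nupr1 was at least 1.68-fold lower, with its Rap signal under the limit. Atf3 was the 1 member above 0, with a log2 difference of 0.19, which is less than the probe set SD of 0.34.

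In Rap cells the member signal was the lowest of the 3 effector arrays for 9 of 10 members, against 31.3% of 13385 genes above the limit in an effector array. For Ddit3 and Atf5 that place rests on differences from control effector of -0.01 and -0.13 on the log2 scale, both smaller than the probe set SD. The comparisons of TOFA and Rap share the control array, so its own error enters both.

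**Figure D3:**
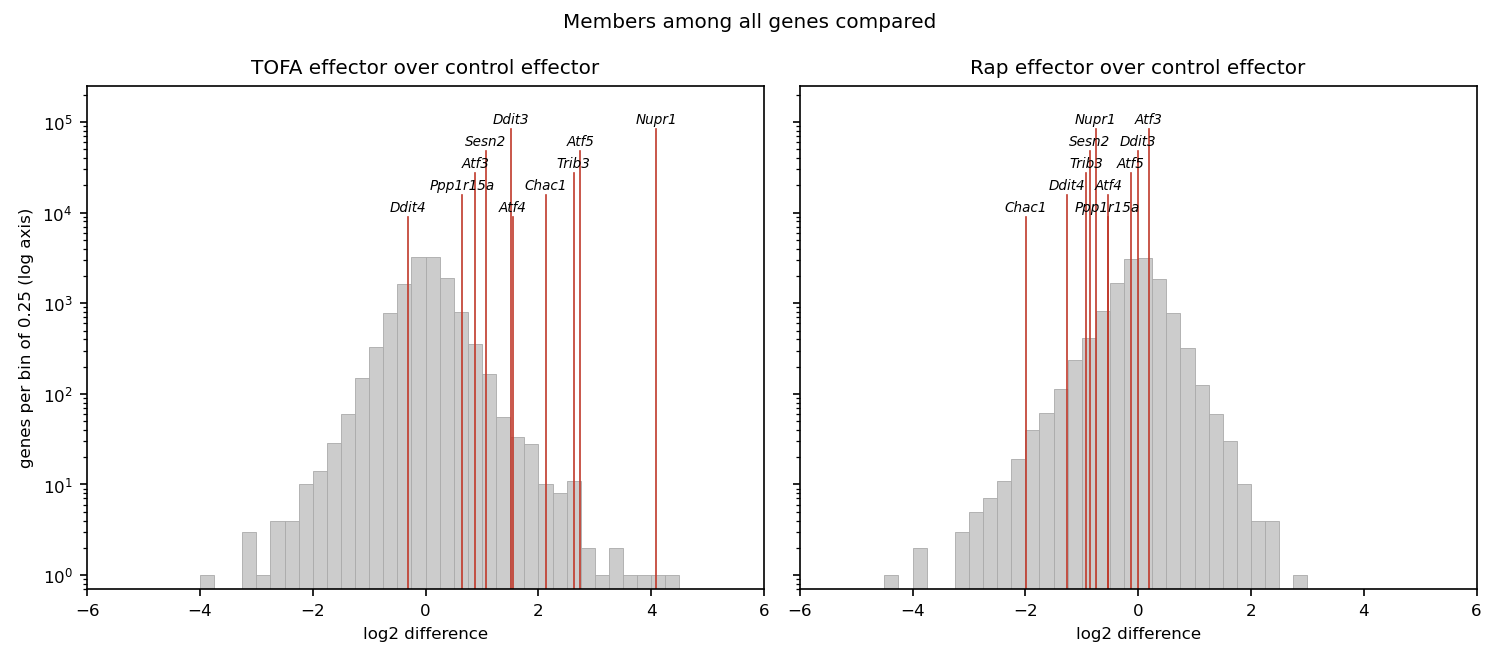
Number of genes (log axis) by log2 difference for TOFA over control effector (12850 genes) and Rap over control effector (12851 genes), in bins of 0.25 and from 1 array a group, with a labelled line at each member. In the TOFA panel 7 members lie at or beyond 1 on the high side with Nupr1 at 4.09, and in the Rap panel the members lie between -1.99 and 0.19.

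The direct comparison of TOFA with Rap cells does not use the control array. In it, all 10 members were above 0, against 52.7% of all genes compared. TOFA signals exceeded Rap signals by at least 2-fold for 8 members, and no member was lower by as much. Over the 12802 genes compared, 3.28% were at least 2-fold higher and 1.35% at least 2-fold lower. The median was 2.01 over the members and 0.02 over all genes. Nupr1 was at least 28.7-fold and Chac1 at least 17.4-fold higher, in places 2 and 3 of all genes, and Trib3 was 11.7-fold higher, in place 7. Atf5 was 7.35-fold, Atf4 4.22-fold, Sesn2 3.82-fold, Ddit3 2.87-fold and Ppp1r15a 2.27-fold higher in TOFA cells. Ddit4 (1.93-fold) and Atf3 (1.62-fold) were under the 2-fold level.

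The genes upstream of ATF4 were under 2-fold apart between the effector arrays. The 13 measured were kinase and phosphatase genes, eIF2B subunit genes, Impact and Dnajc3. None was 2-fold apart for TOFA over control effector, Rap over control effector or TOFA over Rap. Above 0 were 11 of 13 for TOFA over control effector (median 0.09) and 11 of 13 for TOFA over Rap (median 0.25). The shares of all genes above 0 were 51.3% and 52.7%. For Rap over control effector 4 of 13 lay above 0 (median -0.04). Eif2ak4, the kinase GCN2 that senses uncharged tRNA, had signals of 463 in TOFA, 297 in Rap and 461 in control effector cells. Eif2ak3, the kinase PERK of the endoplasmic reticulum, had 1050.4 in TOFA, 1042 in Rap and 1058 in control effector cells. Eif2ak2, the interferon-induced kinase PKR that binds double-stranded RNA, had 775 in TOFA, 468 in Rap and 481 in control effector cells. These 3 genes were chosen after their values were seen. The activity of these kinases is set after translation and was not measured.

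The lists of genes downstream of ATF4 differed in how many members were higher in TOFA cells, against 2.47% of all genes compared. TOFA signals exceeded control effector signals by at least 2-fold for 7 of 12 amino acid transporter genes, with none lower and a list median of 1.31. Slc7a3, a carrier of cationic amino acids, was 6.51-fold higher and Slc1a4 4.92-fold higher. Slc7a5, the large neutral amino acid carrier, was 4.30-fold higher (signal 8419 in TOFA against 1958 in control effector cells). The synthesis list had 6 of 14 genes higher by at least 2-fold and none lower (median 0.77). The largest differences were those of Cth (11.7-fold), Aldh1l2 (9.01-fold) and Gpt2, a mitochondrial alanine transaminase (4.16-fold). Among 19 tRNA synthetase genes 3 were at least 2-fold higher (median 0.60), led by Cars, which charges tRNA with cysteine, at 2.43-fold. The list of transcription factor partners of ATF4 and CHOP had 4 of 13 at least 2-fold higher (median 0.42), including Jdp2, a repressor of the AP-1 family, at 3.46-fold and Cebpb at 2.35-fold.

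The other arms of the unfolded protein response, which run through XBP1 and ATF6 to chaperone genes, had a median of 0.38. Of their 22 genes, 20 lay above 0, against 51.3% of all genes compared, and 1 was at least 2-fold higher, Dnajb9 (2.18-fold). Of 22 other targets of ATF4 or CHOP, 3 were at least 2-fold higher, led by Herpud1, of the degradation of misfolded proteins, at 2.95-fold. The others, Cebpb and Nars, were already counted above, among the partners of ATF4 and CHOP and the tRNA synthetases. The p53 targets, a list examined because Sesn2, Ddit4 and Atf3 also respond to p53, had a median of 0.11 with 1 of 12 at least 2-fold higher, Plk2 (2.31-fold). The other regulators of mTORC1 had a median of 0.00 with none of 16 genes 2-fold apart. Immediate early genes, which also respond to cell handling, had a median of 0.25 with 3 of 18 at least 2-fold higher, led by Egr1 (11.1-fold). Their part in the values of Atf3 and Ppp1r15a was not tested.

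In Rap against control effector cells the same lists lay lower or near 0, apart from the immediate early genes. Of all genes compared, 3.91% were at least 2-fold lower. Medians were -0.42 for amino acid synthesis (2 of 14 at least 2-fold lower, Gpt2 and Cth), 0.01 for the transporters (none of 12 past 2-fold), -0.23 for the tRNA synthetases (none of 19) and -0.46 for other ATF4 or CHOP targets (2 of 22 lower). Those last 2 were Ero1a, an oxidase of protein folding that also responds to hypoxia, at 3.49-fold lower, and Ndrg1 at 2.05-fold lower. Among p53 targets, Cdkn1a, an inhibitor of the cell cycle, was 4.71-fold lower in Rap cells. The immediate early genes had a median of 0.27 in Rap over control effector cells. Of 17 compared, 3 were at least 2-fold higher, among them Egr1 (4.05-fold), and 1 was lower, Ier3. Over all genes compared, 1.82% were at least 2-fold higher.

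Set directly against Rap cells, TOFA cells had medians of 1.15 for the transporters (6 of 12 higher by at least 2-fold), 1.03 for amino acid synthesis (8 of 14), 0.91 for the tRNA synthetases (9 of 19) and 0.83 for other ATF4 or CHOP targets (10 of 22), and no gene of these 4 lists was lower by as much. Nars was counted both among the tRNA synthetases and among the other targets. The chaperone arms had a median of 0.36, with 1 of 22 genes higher and 1 lower. Of all genes compared, 3.28% were at least 2-fold higher and 1.35% at least 2-fold lower.

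**Figure D4:**
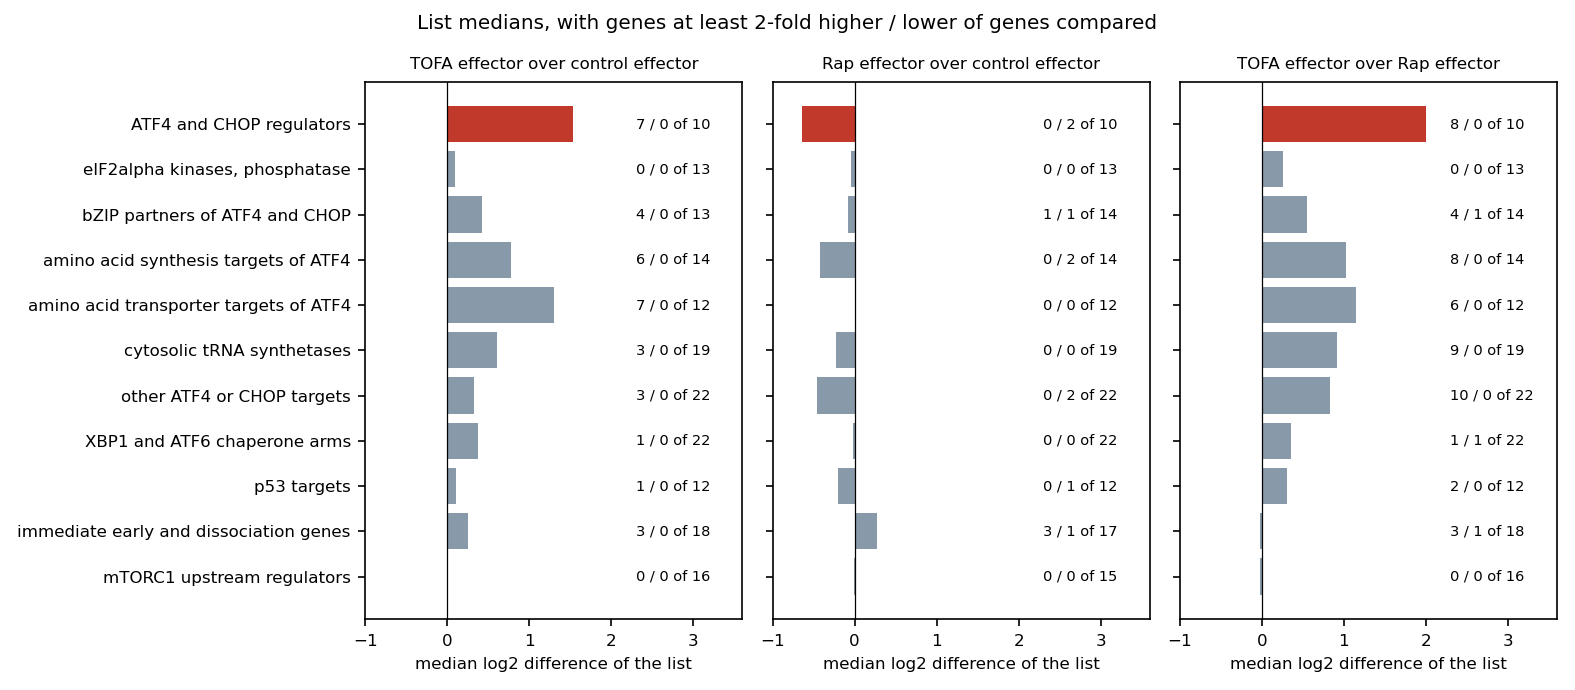
Median log2 difference of the members (red) and of 10 other gene lists for TOFA over control effector, Rap over control effector and TOFA over Rap, with the number of genes at least 2-fold higher and lower of those compared printed beside each bar. The members have medians of 1.53, -0.65 and 2.01, and of the other lists the amino acid transporters have the highest TOFA over control effector median, at 1.31.

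The genes outside the members whose profile over the 5 arrays came closest to those of members were sought. The measure was the root mean square distance between mean-centred log2 signals, among 6131 genes with at least a 2-fold range. Genes with clone-type or prediction-type symbols were left out. For Trib3 they were Slc7a3 (distance 0.40), Slc7a5 (0.56) and Cth, the cystathionine gamma-lyase (0.72). For Nupr1 they were Aldh1l2, a mitochondrial folate enzyme (0.45), Cth (0.65) and Slc1a4, a carrier of neutral amino acids (0.71). For Ddit3 they were Flywch2 (0.20), Gstt3 (0.23) and Shmt2, a mitochondrial serine enzyme (0.23). For Atf4 they were Paqr3 (0.12), Lrrc27 (0.14) and Snhg12 (0.20), of which Snhg12 alone was above the limit in all 5 arrays. Of the other genes named here, Shmt2 and Slc7a5 were above the limit in all 5 arrays. Flywch2, Gstt3, Slc7a3, Cth, Aldh1l2 and Slc1a4 were under it in at least 1 array, so their distances rest in part on signals set to the limit. Among members, the closest pair was Sesn2 and Ddit3 (0.51), and the farthest was Ppp1r15a and Trib3 (1.99). The member Atf5 lay at 0.646 from Nupr1, closer than Cth at 0.648.

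Control effector cells were set against naive cells to see how the members stood after Th1 culture. Signals in control effector cells were higher by at least 2-fold for Atf3, Sesn2, Chac1, Trib3, Atf5 and Ddit3, 6 of 10, and lower by as much for 1, Ppp1r15a. This count stands against a high background, with 15.9% of 13070 genes at least 2-fold higher and 11.4% at least 2-fold lower. The median was 1.04 over the members and 0.04 over all genes.

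Atf3 had a signal of 549.99 in control effector cells against 55.1 in naive cells, 9.99-fold higher. Sesn2 was 4.10-fold higher (379 against 92.6), with a log2 difference of 2.37 on its other probe set. Trib3 had 595 against 198, a log2 difference of 1.59, and Chac1 at least 3.98-fold higher, with its naive signal under the limit. Atf5 (2.11-fold) and Ddit3 (2.01-fold) lay at the 2-fold level, and both were under it with the values as deposited. Chac1 was under it with the limit at the 60th percentile. Atf4 itself had nearly equal signals of 4159 in control effector and 4247 in naive cells, and its sign turned with the values as deposited. Ddit4 also lay close to 0, with a log2 difference of 0.15. Nupr1 was at least 1.68-fold higher, with its naive signal under the limit, so whether it passes 2-fold is not settled. Ppp1r15a was 2.22-fold lower in control effector than in naive cells (467 against 1038).

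Of 17 immediate early genes, 8 were at least 2-fold lower in control effector than in naive cells, against 11.4% of all genes compared. The list median was -0.73, and 1 gene, Ier3, was at least 149.7-fold higher. Among the 8 was Egr1, with 86.8 in control effector against 4383 in naive cells. B cell and neutrophil markers were lower in the same comparison, with sums of 1999 against 33335 and 758 against 5968. The part of either in the value of Ppp1r15a was not tested. Of the amino acid synthesis list, 10 of 14 genes were higher by at least 2-fold in control effector cells, against 15.9% of all genes compared. Asns, asparagine synthetase, was 16.6-fold higher, while the Atf4 signals were under 2-fold apart.

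Memory cells were compared with naive and with control effector cells. Of 9 members compared with naive cells, 2 were at least 2-fold higher and 2 at least 2-fold lower, against 12.6% and 4.14% of all 13082 genes. With the values as deposited that background was 2075 genes higher and 344 lower, in place of 1645 and 542. Sesn2 was 2.11-fold higher (195 in memory against 92.6 in naive cells) and Atf3 2.16-fold higher (119 against 55.1). Trib3 was 3.19-fold lower (62.0 against 198) and Ddit4 2.44-fold lower (5010.1 against 12230.2). The log2 differences of Atf4 (-0.26), Ddit3 (-0.28), Atf5 (0.71) and Ppp1r15a (-0.87) were under 2-fold. Nupr1 had 81.9 in memory against 3.65 in naive cells, at least 1.89-fold higher with the naive value under the limit, so whether it passes 2-fold is not settled. Its log2 difference was 1.34 with the values as deposited, 1.41 with the added constant and 2.60 with the limit at the 20th percentile. Chac1 was under the limit in both arrays and was not compared. With the limit at the 60th percentile, the count of 4 members past 2-fold was 1, since Atf3, Trib3 and Sesn2 have low signals in both arrays.

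Against control effector cells, 5 of 10 members were at least 2-fold lower in memory cells and none higher, while 14.1% of 13326 genes were at least 2-fold lower and 14.5% at least 2-fold higher. With the values as deposited that background was 1453 genes lower and 2601 higher, in place of 1873 and 1932, and 5 members were again at least 2-fold lower. The median was -1.12 over the members and -0.03 over all genes. Trib3 was 9.59-fold lower in memory cells, with signals of 62.0 against 595, with a log2 difference of -3.56 on its other probe set. Atf3 was 4.62-fold lower (119 against 549.99), Chac1 at least 3.98-fold lower, Ddit4 2.70-fold lower (5010.1 against 13536) and Ddit3 2.44-fold lower (643 against 1572). Atf4 was under 2-fold apart, at 3557 in memory against 4159 in control effector cells. Sesn2 (-0.96), Atf5 (-0.37), Nupr1 (0.17) and Ppp1r15a (0.28) were also under 2-fold on the log2 scale, and the sign of Atf5 turned with the values as deposited. In the amino acid synthesis list 11 of 14 genes were lower by at least 2-fold in memory cells.

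The markers of other cells moved with all memory values. Of all genes compared, 14.5% were at least 2-fold higher in memory than in control effector cells. So were 10 of 10 B cell markers and 9 of 10 myeloid markers. Their part in the lower member signals was not tested.

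**Figure D5:**
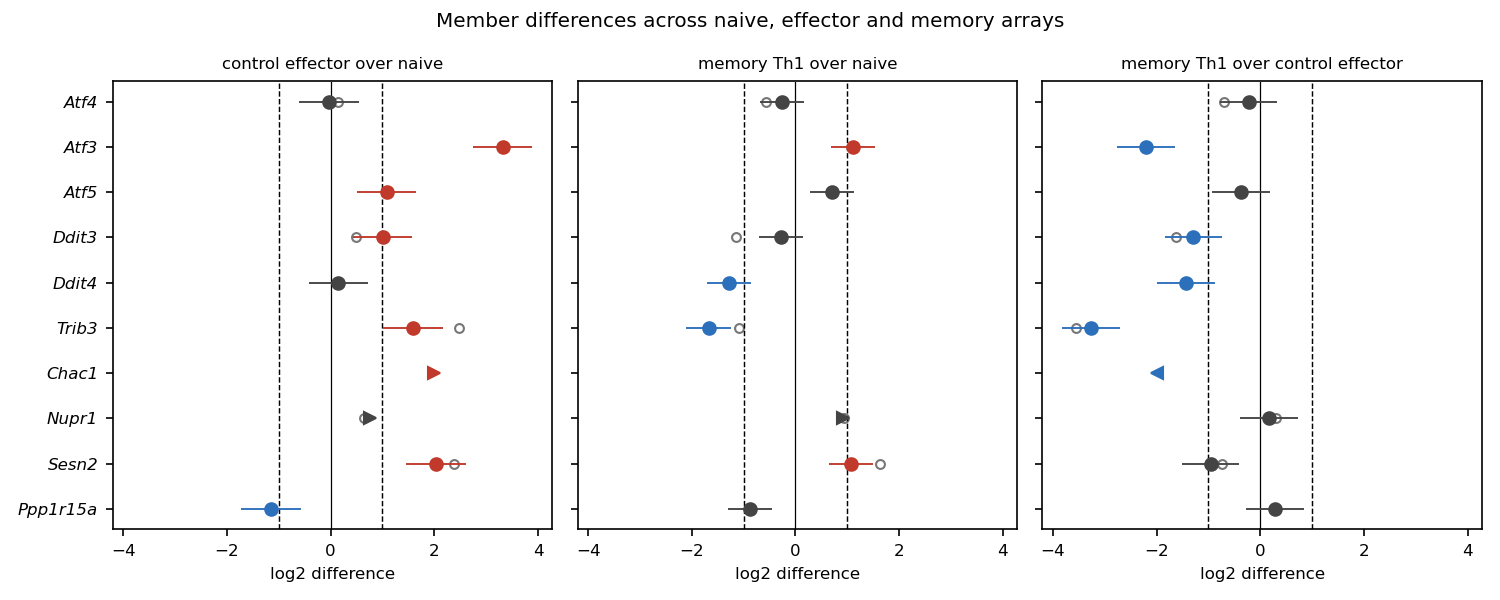
Log2 differences of the 10 members for control effector over naive, memory over naive and memory over control effector, from 1 array a group; filled marks are the probe set that stands for the gene with bars of the SD between probe sets (0.57, 0.43 and 0.55), triangles are bounds, open circles are other probe sets, and dashed lines mark 2-fold. Atf3 is farthest to the right in the first panel (3.32) and Trib3 farthest to the left in the last (-3.26), while Atf4 lies within 2-fold in all 3.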

How the data were processed

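Each of 5 arrays, 1 per group by the sample titles, measured total RNA labelled with an Affymetrix kit, per the labels. The deposited values are linear intensity per probe set, made with GCOS and Affymetrix Expression Console per the submitters' processing notes. No version and no algorithm is named in the sources used here. The mean after trimming 2% at each end was 500.003 on each array, a scaling to 500. The medians of the arrays spread over 0.658 (log2), so 45037 probe sets without 64 controls were quantile normalized. Signals under the 40th percentile, 43.4, were set to it for differences, and genes under it in both arrays were not compared. Of the probe sets, 34945 had 1 symbol in the 2016 annotation and 932 had several. Each of 18193 genes was read from its brightest probe set, by mean log2 signal after that step.

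The 10 members and the 17 other gene lists, 233 of 249 entries of which matched with the members included, were chosen with earlier results of these data known. Genes outside the members were named as the 3 with the largest differences past 2-fold in a list, or as nearest profiles. Exceptions were 3 kinase genes, the cell markers Lyz2 and Batf3, and the genes of no list, all chosen after their values were seen. Calculations used Python 3.11.15, numpy 2.4.6 and pandas 2.3.3, and the differences were tested on simulated data. The alternatives were the values as deposited, a limit at the 20th or the 60th percentile, the mean of a gene's probe sets, omission of probe sets of the types that may match more than 1 transcript, and an added constant. Normalization over the 3 effector arrays alone was added after seeing the data.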

Additional observations from a re-analysis of the deposited data

How the results depend on the processing

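Of the counts of members past 2-fold in the 6 comparisons, 3 moved by over 1.5 times under an alternative. The mean of all probe sets gave 4 in place of 7 for TOFA over control effector, as the other probe sets of Atf4, Ddit3 and Sesn2 showed smaller differences than the brightest. For Atf4 that mean includes a probe set under the limit in all arrays but TOFA. A limit at the 60th percentile gave 1 in place of 2 for Rap over control effector and 1 in place of 4 for memory over naive, since low signals are then set to the limit. No member called at 2-fold turned its direction under any of the 7 alternatives. The sign turned for members near 0 in 4 of 39 combinations of comparison and alternative, in Ddit3 for Rap over control effector, Atf4 for control effector over naive (in 2 of them) and Atf5 for memory over control effector. Counts over all genes moved with the limit. At the 20th percentile, genes higher and lower were 1229 and 1219 for TOFA over control effector, in place of 318 and 276, 1173 and 1513 for Rap over control effector (234 and 503), and 1387 and 1071 for TOFA over Rap (420 and 173). At the 60th percentile they were 140 and 85, 71 and 215, and 196 and 43 in the same order, and 1052 and 270 for memory over naive. For control effector over naive, memory over naive and memory over control effector, the 20th percentile gave 3169 and 2521, 2552 and 1587, and 2743 and 2917, in place of 2078 and 1493, 1645 and 542, and 1932 and 1873. The mean of all probe sets gave 222 and 178 for TOFA over control effector and 294 and 111 for TOFA over Rap. The values as deposited gave 2075 and 344 for memory over naive and 2601 and 1453 for memory over control effector. With them, the median of all genes for memory over control effector shifted by 0.21 on the log2 scale. No paired analysis was possible because each group has 1 array. Leaving out replicates was not possible for the same reason.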

Other observations

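The 60 genes with a TOFA signal at least 2-fold above each other array held 7 members, 15 genes of the other gene lists and 38 genes of no list. Those named next were chosen after their values were seen. Of the last, Angptl6, which encodes a secreted protein of the angiopoietin-like family, was 6.06-fold above the next array, Bcat1, the cytosolic transaminase of branched-chain amino acids, 2.61-fold, and Upp1, uridine phosphorylase, 2.60-fold. Mx2 and Usp18, both interferon-induced, were 4.09-fold and 2.72-fold above the next array, and Il21, the gene of a helper T cell cytokine, 2.27-fold.

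The core TGATGNAA was found in a RefSeq promoter of 25 of 252 genes that were at least 2-fold higher in TOFA than in control effector cells and had a promoter in the table, a share of 9.92%. Of the 10381 genes compared that had a promoter there, the share was 2.83%. For the cyclic AMP element the shares were 3.17% and 3.43%. These shares are descriptions of 2 arrays, made without a test.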
